A study of Homo sapiens with 6 samples.

Results

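The galectin family was followed here through 5 genes, LGALS1, LGALS3, LGALS8, LGALS3BP and LGALSL, of 27439 genes with at least 1 read in the series. The family was chosen by a measured value, the lower read count of LGALS3 in the ventral midbrain libraries, and its genes by name. The fold changes of the 5 genes between the groups are therefore given as a description. Which of them passed the test run over all genes is stated below, and nothing is read from it. The cells were astrocytes derived from H1, an established human embryonic stem cell line, and RNA was read at the 3' end of polyadenylated transcripts. Of 6 libraries, 3 came from astrocytes with a control, forebrain character and 3 from astrocytes with a ventral midbrain character, with the replicate numbers 2, 3 and 4 in each group. The labels give no genotype change or treatment that separates the groups beyond the regional character, and all libraries share the 1 stem cell line. They do not say whether the libraries came from separate cultures, so each p-value speaks of the spread among these 6 samples alone.

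Galectins are small lectins that bind beta-galactoside sugars, mostly on the branched glycans of cell surface and matrix glycoproteins. They are made in the cytosol and leave the cell without a signal peptide. Outside the cell they cross-link receptors, and inside it they mark damaged endosomes and lysosomes by binding the sugars exposed there. In the brain LGALS1 and LGALS3 are known from astrocytes and microglia, and LGALS3 is abundant in macrophages and fibroblasts. The 5 genes differ in kind. LGALS1 encodes a galectin with a single lectin domain that forms dimers, and LGALS3 the chimeric galectin, whose long flexible tail lets it form larger assemblies. LGALS8 encodes a tandem galectin with a pair of lectin domains. LGALS3BP encodes no galectin but a secreted scavenger receptor glycoprotein that galectins bind. LGALSL encodes a galectin-like protein that is not known to bind these sugars.

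The libraries held 11617935 to 15391082 estimated reads. Of 15984 genes tested, 344 had an adjusted p under 0.05 in edgeR's quasi-likelihood fit, which is 2.15%, and of these 169 were higher (1.06%) and 175 lower (1.09%) in ventral midbrain libraries. Same-numbered libraries deviated together, and a fit that blocks on the replicate number called 1300 genes, which is 8.13%, with 3.63% higher and 4.5% lower. Without control replicate 4 the count without the block was 131, and it was below the full count by over 1.5 times also without control replicate 2 (211) and ventral midbrain replicates 2 (159) and 4 (168).

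LGALS3 was lower in every ventral midbrain library than in every control library. It lies on chromosome 14, at 55124110 to 55145413 (GRCh38), and no other annotated gene overlaps it. Levels are given as CPM, read counts scaled to a common library size. LGALS3 stood at 203, 282 and 303 CPM in control replicates 2, 3 and 4, and at 87.4, 56.5 and 57.1 CPM in ventral midbrain replicates 2, 3 and 4. The groups do not overlap, which held for 17.9% of all genes tested, and in this direction for 8.75%. The means were 263 ± 52.7 CPM (SD, n = 3) and 67 ± 17.7 CPM (SD, n = 3), the control mean being 3.92 times the other. On the log2 scale the fitted difference was -1.97 ± 0.22 (SE). It rested on 2781 to 4013 reads per control library and 720 to 1345 reads per ventral midbrain library. In bulk RNA, fewer cells that express LGALS3 and less LGALS3 RNA per cell cannot be told apart.

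Between libraries of the same number, the difference in LGALS3 was uneven. In ventral midbrain replicate 2 the level was 43% of that in control replicate 2, and in replicates 3 and 4 it was 20% and 18.8% of the matching control. Replicate 2 thus had the lowest LGALS3 among the controls and the highest among the ventral midbrain libraries. With the replicate block the fitted log2 difference was -1.98 ± 0.24 (SE). Without the block it lay between -2.22 and -1.86 when each library was left out in turn. A single coding transcript, LGALS3-201, held 99.9% of the LGALS3 reads, and 3' end reads do not show the upstream exons.

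**Figure D1:**
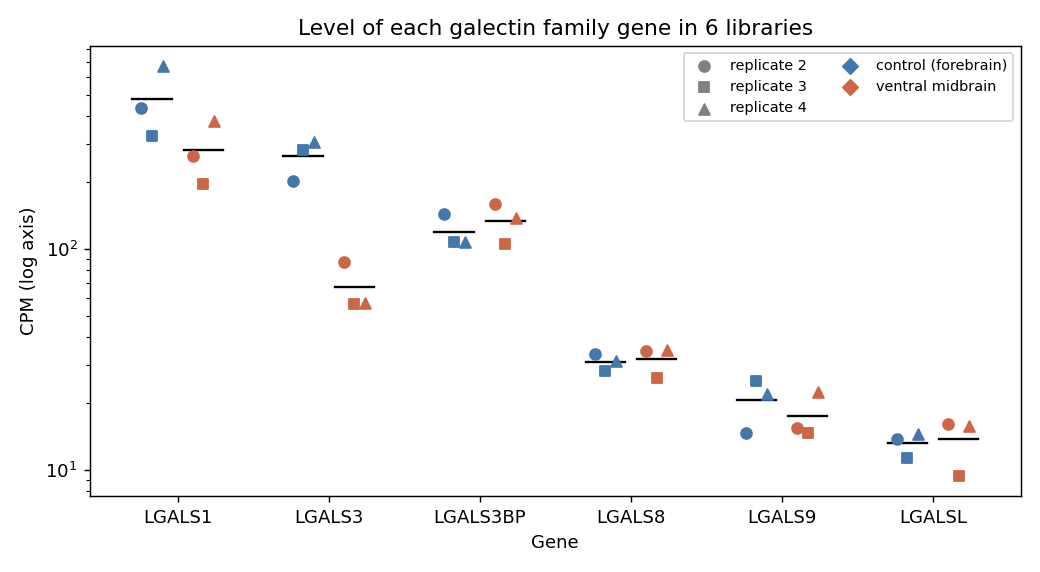
CPM on a log axis for 6 galectin family genes, with control libraries in blue, ventral midbrain libraries in orange, a marker shape for each replicate number and a line at each group mean (n = 3). LGALS3 is the gene whose groups do not overlap, at 203 to 303 CPM against 56.5 to 87.4 CPM.

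LGALS1 was the most abundant galectin in each library. It lies on chromosome 22, at 37675608 to 37679806 (GRCh38). Its level was 436, 324 and 671 CPM in control replicates 2, 3 and 4 and 263, 196 and 381 CPM in ventral midbrain replicates 2, 3 and 4. The groups overlap, since ventral midbrain replicate 4 lies above control replicate 3. Within each group the highest library held about as large a multiple of the lowest, 2.07 times in control and 1.94 times in ventral midbrain libraries, and the order of the replicate numbers was the same. Set against the control of the same number, ventral midbrain libraries held 60.3%, 60.6% and 56.8% of the LGALS1 level, with a mean log2 ratio of -0.76 ± 0.05 (SD, n = 3). The fitted log2 difference was -0.77 ± 0.31 (SE) without the block and -0.76 ± 0.11 (SE) with it. The difference between the groups was thus near constant over the 3 numbers, while the level itself varied with the number. Left-out libraries moved the fit without the block between -1.05 and -0.44. The transcript LGALS1-201 held 99.7% of the reads.

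**Figure D2:**
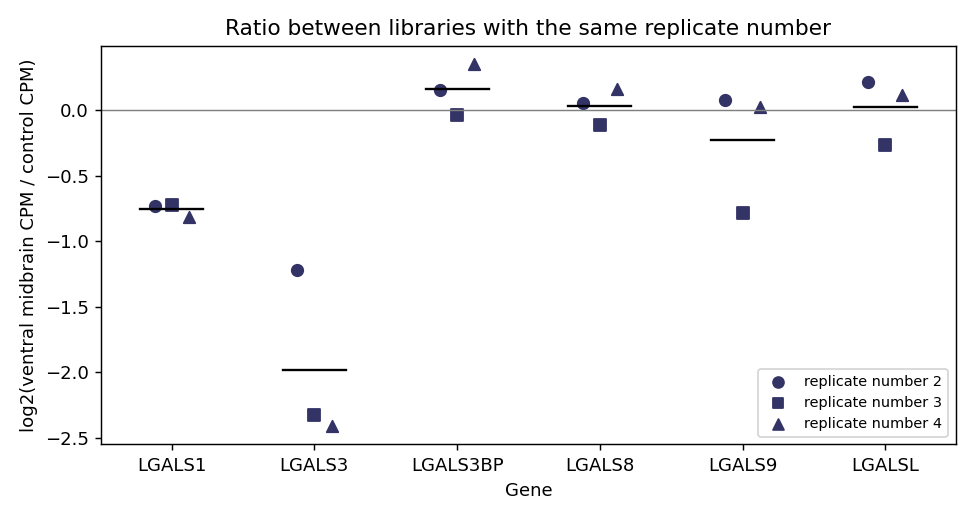
Log2 ratio of the CPM in a ventral midbrain library to that in the control library with the same replicate number, with a line at the mean of the 3 ratios. The LGALS1 ratios lie together at -0.82 to -0.72, the LGALS3 ratios spread from -2.41 to -1.22, and those of the other 4 genes lie on either side of 0.

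LGALS3BP, on chromosome 17 at 78971238 to 78980109 (GRCh38), did not share the lower level of LGALS3. It stood at 143, 108 and 108 CPM in control replicates 2, 3 and 4 and at 159, 105 and 138 CPM in ventral midbrain replicates 2, 3 and 4, so the groups overlap. The fitted log2 difference was 0.16 ± 0.19 (SE). The ratio of LGALS3 reads to LGALS3BP reads within a library does not depend on scaling between libraries. It was 1.42, 2.62 and 2.81 in control replicates 2, 3 and 4 and 0.549, 0.537 and 0.415 in ventral midbrain replicates 2, 3 and 4. Reads of LGALS3 thus outnumbered those of LGALS3BP in each control library, and the reverse held in each ventral midbrain library. The ratio of LGALS3 to LGALS1 reads was 0.467, 0.871 and 0.453 in the control libraries and 0.333, 0.288 and 0.15 in the ventral midbrain libraries. Of the reads of LGALS1, LGALS3, LGALS8, LGALS9 and LGALSL together, LGALS3 took 29% to 42.1% in control and 11.2% to 21% in ventral midbrain libraries. Both ratios and this share hold the LGALS3 reads by which the family was chosen. They restate that difference and are no further evidence of it.

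LGALS8, on chromosome 1 at 236518000 to 236552981 (GRCh38), overlapped between the groups in CPM. It stood at 33.4, 28.2 and 31.1 CPM in control replicates 2, 3 and 4 and at 34.6, 26.0 and 34.7 CPM in ventral midbrain replicates 2, 3 and 4. The fitted log2 difference was 0.04 ± 0.18 (SE). In the authors' deposited normalized signal, which also divides by a length that depends on the transcripts found, LGALS8 stood at 927, 283 and 561 in the control libraries, against 362, 292 and 339 in the ventral midbrain libraries, and the log2 difference there was -0.68. With a gene-length offset on the counts it was -0.82. The length in both comes from the transcripts to which reads were assigned, among them a short one with few reads. LGALS8-228, a retained-intron transcript of 658 bases, was assigned 42 reads in control replicate 2, 17.6 in control replicate 4 and 0 in the other libraries. In TPM, which divides reads by transcript length, it held 3.31 of the 5 TPM of LGALS8 in control replicate 2. The mean length used for LGALS8 was 1957 and 3071 bases in those libraries, and 4872 to 5538 bases in the others. With lengths of protein-coding transcripts alone, an alternative chosen after seeing the data, the log2 difference was 0.07.

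The coding transcripts of LGALS8 could not be told apart reliably in these libraries. LGALS8-208 and LGALS8-212, of 6097 and 6281 bases, share an unbroken 5371 bases near their 3' ends, which lie 7 bases apart. LGALS8-208 took 53.4%, 99.6% and 0% of the LGALS8 reads in control replicates 2, 3 and 4 and 69.5%, 25.7% and 68.3% in ventral midbrain replicates 2, 3 and 4. The means were 51 ± 49.8% (SD, n = 3) and 54.5 ± 24.9% (SD, n = 3), and a two-sided exact permutation test gave p = 1, where 3 against 3 libraries allow no p below 0.1. Between same-numbered libraries the difference was 16.1, -73.8 and 68.3 percentage points, so the pairs did not share a direction. LGALS8 was the only one of the 5 genes with more than 1 transcript at 5% of its reads or more, so this was a single test. Genes on the opposite strand overlap LGALS8, HEATR1 and LGALS8-AS1 among them, and the sources used here do not give whether counting was by strand. LGALS8-AS1 itself had 0 to 10 reads per library.

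**Figure D3:**
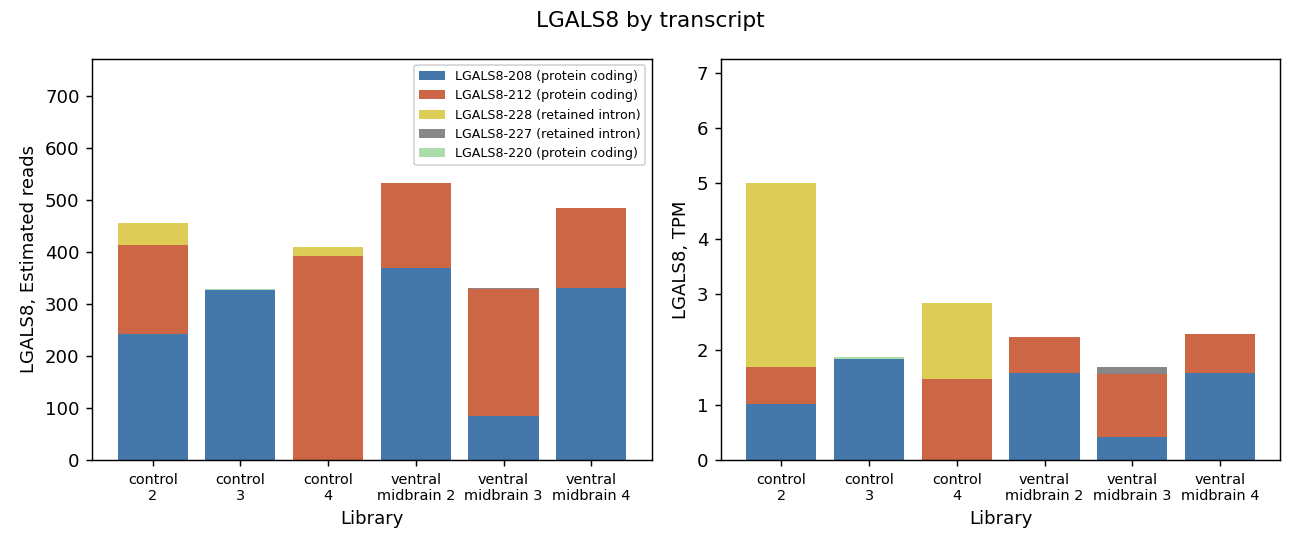
LGALS8 by transcript in each library, as estimated reads on the left and as TPM on the right. The retained-intron transcript LGALS8-228 adds 42 reads to control replicate 2 but 3.31 of its 5 TPM, and the split between LGALS8-208 and LGALS8-212 changes from library to library within both groups.

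LGALSL, on chromosome 2 at 64453969 to 64461381 (GRCh38), was the lowest of the 5 genes. It stood at 13.8, 11.3 and 14.6 CPM in control replicates 2, 3 and 4 and at 16.1, 9.41 and 15.8 CPM in ventral midbrain replicates 2, 3 and 4, with a fitted log2 difference of 0.06 ± 0.26 (SE). The ventral midbrain libraries lie on both sides of the controls. In all, 1 of the 5 genes, LGALS3, passed edgeR's test as lower, where 1.09% of all tested genes did, and 0 as higher, where 1.06% did. With the replicate block LGALS1 passed too, so 2 were lower, where 4.5% of all tested genes were, and 0 higher, where 3.63% were. Nothing is read from these counts, because LGALS3 was the reason for the choice. The median log2 difference of the 5 genes was 0.04, against 0.01 over all genes tested.

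Levels of different genes are compared per transcript length, in TPM, although reads taken at the 3' end of a transcript do not grow in number with its length. In control libraries the order was LGALS1 at 576 ± 152 TPM, LGALS3 at 145 ± 43.5, LGALS3BP at 49.9 ± 7.22, LGALS8 at 3.23 ± 1.61 and LGALSL at 1.78 ± 0.05 TPM (SD, n = 3 each). In ventral midbrain libraries it was LGALS1 at 390 ± 161 TPM, LGALS3BP at 59.6 ± 13.9, LGALS3 at 40.6 ± 10.2, LGALS8 at 2.07 ± 0.33 and LGALSL at 2.01 ± 0.56 TPM (SD, n = 3 each). LGALS3BP and LGALS3 overlap in TPM over the ventral midbrain libraries, although LGALS3BP was the higher in each of them, and LGALS8 and LGALSL overlap there too. In CPM neither pair overlaps in these libraries. The control level of LGALS8 carries the short transcript described above.

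Among the galectin genes outside the 5, LGALS9 was well detected, although another annotated gene on the same strand, AC015688.4, overlaps it. LGALS9, which encodes another tandem galectin, stood at 14.7, 25.3 and 22.2 CPM in control replicates 2, 3 and 4 and at 15.5, 14.7 and 22.5 CPM in ventral midbrain replicates 2, 3 and 4. Its log2 fold change was -0.24 ± 0.26 (SE; edgeR adjusted p = 0.82). Its near-identical copies LGALS9B and LGALS9C were assigned 0 to 1 and 0 to 19 reads per library, and reads of the 3 genes may be split between them. LGALS4, LGALS7B and LGALS12 had 0 to 7 reads per library. No read was assigned to LGALS2, LGALS7, LGALS13, LGALS14, LGALS16, CLC, GRIFIN or LGALSL-DT in any library, which allows a level of up to 0.195 to 0.258 CPM per library (3 reads, counting error only).

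Genes that make, carry or respond to galectin ligands were read from 3 lists of 108 genes in all, of which 107 were tested. Of these 7 passed edgeR's test, 1 higher and 6 lower, which is 6.54% against 2.15% of all genes tested. With the replicate block 21 passed, 2 higher and 19 lower, which is 19.6% against 8.13%. Without the block, 3 passed without control replicate 2 or 3, 2 without control replicate 4 or ventral midbrain replicate 4, 1 without ventral midbrain replicate 2 and 5 without ventral midbrain replicate 3. The median log2 fold change was -0.13 over the lists and 0.01 over all genes tested. The lists were chosen with earlier results of these data known, so these shares are a description.

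Of 37 tested enzymes that build galectin-binding glycans, 35 did not pass, 1 rose and 1 fell, where 1.06% of all tested genes were higher and 1.09% lower. GCNT1, which starts the branch of mucin-type glycans that galectin ligands can extend from, stood at 35.6, 40.04 and 42.6 CPM in the controls and at 10.5, 9.1 and 11.2 CPM in the ventral midbrain libraries. It fell by 1.94 ± 0.19 on the log2 scale (SE; edgeR adjusted p = 0.00086), and the groups do not overlap. MAN1C1, a Golgi mannosidase that trims glycans before they branch, rose by 1.51 ± 0.24 on the log2 scale (SE; adjusted p = 0.010 by edgeR), with means of 14.1 ± 3.8 CPM in control and 40.3 ± 7.27 CPM in the other group (SD, n = 3). The MAN1C1 call was lost without ventral midbrain replicate 2 (adjusted p = 0.05003 by edgeR), and that of GCNT1 with none of the 6 libraries left out. The galactosyltransferase B4GALT1, which adds the galactose that galectins bind, was at 271, 179 and 331 CPM in control replicates 2, 3 and 4 and at 139, 70.6 and 161 CPM in the matching ventral midbrain libraries. Its groups do not overlap, but it did not pass (adjusted p = 0.22 by edgeR without the replicate block and 6.4e-05 with it). MAN1A2, another mannosidase, had means of 242 and 196 CPM and B4GALT5, another galactosyltransferase, of 173 and 193 CPM (adjusted p = 0.46 and 0.83 by edgeR, neither past the threshold). With the block, 1 enzyme was higher and 5 were lower, where 3.63% of all tested genes were higher and 4.5% lower.

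Of 40 tested glycoproteins that galectins are known to bind, 5 fell, 0 rose and 35 did not pass. Of all genes tested, 1.09% were lower and 1.06% higher. NRP1, a semaphorin and VEGF coreceptor, had a mean of 75.4 ± 16.8 CPM in control and 35.1 ± 3.92 CPM in ventral midbrain libraries (SD, n = 3; adjusted p = 0.016 by edgeR). PLXNA4, its plexin partner, had means of 218 ± 19.4 and 114 ± 22.1 CPM (adjusted p = 0.022 by edgeR). The growth factor receptor EGFR had means of 88.3 ± 9.01 and 53 ± 7 CPM (adjusted p = 0.045 by edgeR), and the adhesion molecule ALCAM of 39.2 ± 5.99 and 21.6 ± 2.47 CPM (adjusted p = 0.046 by edgeR). CNTN1, a neuronal adhesion molecule, had 17 to 19 reads in each control library and 0 to 1 in the ventral midbrain libraries. Its ratio of ventral midbrain to control reads per total was 0.0181 (exact 95% interval 0.00045 to 0.105, counting error only; edgeR adjusted p = 0.037). These calls were fragile. EGFR, ALCAM and CNTN1 lost theirs in each of the 6 fits with 1 library left out (highest edgeR adjusted p = 0.13, 0.20 and 0.16). PLXNA4 kept its call only without ventral midbrain replicate 3, and NRP1 lost it without replicate 2 or 4 of either group (highest edgeR adjusted p = 0.080 and 0.078). Of the 5, NRP1 alone was called with a gene-length offset and in the authors' deposited normalized values.

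The most abundant ligands did not pass without the block. FN1, fibronectin, was at 1957 ± 494 and 2121 ± 688 CPM (SD, n = 3; edgeR adjusted p = 0.93). CD63, a tetraspanin of late endosomes, was at 2149 ± 670 and 1459 ± 234 CPM (adjusted p = 0.35 by edgeR without the replicate block and 0.0097 with it). CD44, the hyaluronan receptor, was at 909 ± 182 and 608 ± 182 CPM (adjusted p = 0.37 by edgeR without the replicate block and 0.0045 with it). With the block, 12 ligands were lower and 1 was higher, where 4.5% of all tested genes were lower and 3.63% higher. TREM2 was too low to be tested.

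Partners of galectins inside the cell, mainly factors of lysosomal damage and autophagy, did not pass. Of 30 tested, 0 passed edgeR's test, 2 had an unadjusted p under 0.05, and neither DESeq2 nor voom called any (0). SQSTM1, an autophagy receptor, was at 293 ± 56.8 and 197 ± 38.1 CPM (SD, n = 3; adjusted p = 0.22 by edgeR without the replicate block and 0.0054 with it). CTNNB1, the beta-catenin gene, had means of 470.5 and 559 CPM, and TAX1BP1, another autophagy receptor, of 326 and 264 CPM (adjusted p = 0.65 and 0.42 by edgeR). With the block, 3.63% of all tested genes were higher and 4.5% lower. Of the partners 0 were then higher and 2 lower, SQSTM1 and the cell death inhibitor BCL2. BCL2 had means of 16.9 and 10.1 CPM (adjusted p = 0.18 by edgeR, and 0.044 blocked).

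**Figure D4:**
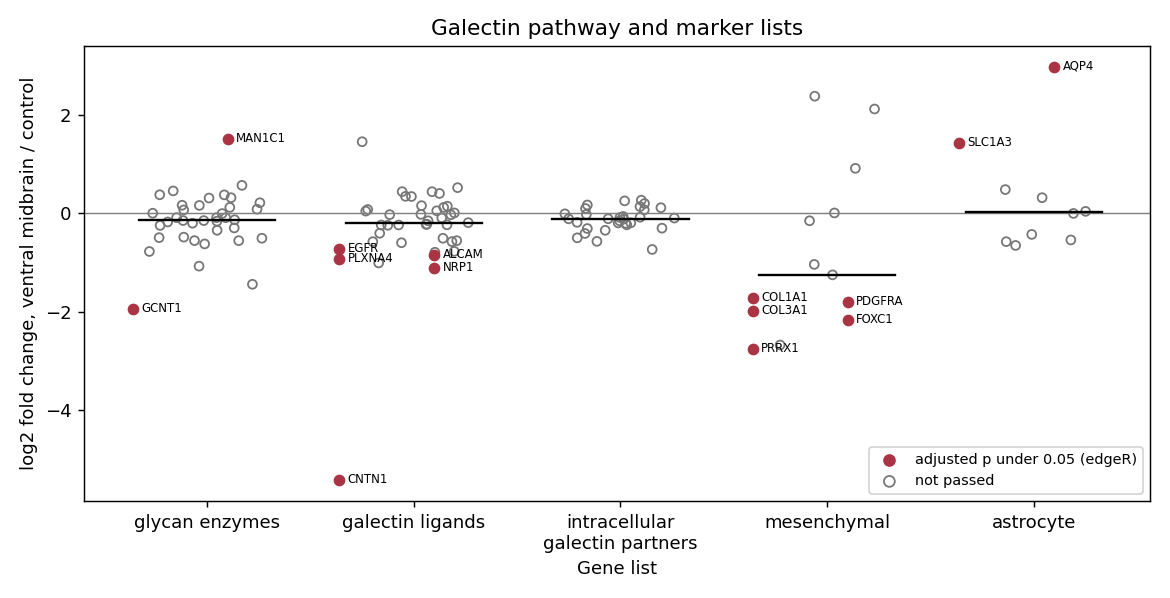
Log2 fold change (ventral midbrain over control) of each tested gene in the 3 galectin pathway lists and in the mesenchymal and astrocyte marker lists, with filled points for genes past edgeR's test and a line at each list's median. The fitted value of CNTN1 rests on 1 read in 3 ventral midbrain libraries and depends on the fit's prior count.

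Markers of other cells were read beside LGALS3, and the members of most lists did not move together. Of 13 mesenchymal markers, 5 fell (COL1A1, COL3A1, PDGFRA, PRRX1 and FOXC1), 0 rose and 8 did not pass, where 1.09% of all tested genes were lower. In either direction, 11 had an unadjusted p under 0.05 in edgeR's test, DESeq2 called 9 and voom 4. Of all 13, 9 had a log2 fold change below 0 and 4 above it, and none was at 0 reads. The median log2 fold change was -1.25, against 0.01 over all genes tested. With the replicate block, where 4.5% of all tested genes were lower and 3.63% higher, 7 were lower and 1 was higher. That 1 was POSTN, a matrix protein of fibroblasts, with means of 65.8 CPM in control and 124 CPM in ventral midbrain libraries (adjusted p = 0.060 by edgeR, and 0.00030 blocked). DCN and LUM, matrix proteoglycans of fibroblasts, were low, at means of 0.407 and 0.524 CPM in control and 1.81 and 2.8 CPM in ventral midbrain libraries, and did not pass either way. The summed level was 1303 to 1998 CPM in control and 755 to 964 CPM in ventral midbrain libraries. COL1A1, a fibroblast collagen, held much of it, with means of 910.2 and 277 CPM (adjusted p = 0.0037 by edgeR). Without COL1A1 the sums were 633 to 1015 CPM and 519 to 652 CPM, which overlap. THY1, with a mean of 262 CPM in either group, and POSTN weigh in these sums. Among the markers that fell, PDGFRA, FOXC1 and PRRX1 had means of 63.2, 91.1 and 8.5 CPM in control. In ventral midbrain libraries their means were 18, 20.1 and 1.25 CPM. COL3A1 lost its call without control replicate 4 or any 1 ventral midbrain library, and FOXC1 without control replicate 4 (highest adjusted p = 0.15 and 0.056 by edgeR).

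Of 9 tested neuron markers, 0 passed edgeR's test, 4 had an unadjusted p under 0.05, DESeq2 called 4 and voom 0. Of the 9, 5 had a log2 fold change below 0 and 4 above it. The median was -1.14, against 0.01 over all genes tested. Blocked, 5 were lower and 0 higher, where 4.5% of all tested genes were lower and 3.63% higher. The sum of the 10 neuron markers was 1267 to 2012 CPM in control and 715 to 1188 CPM in ventral midbrain libraries, and none was at 0. Most of the difference in the sum was that of STMN2, a regulator of microtubules in growing axons, with means of 1061 and 449 CPM (adjusted p = 0.54 by edgeR, and 0.0091 blocked). Without STMN2 the sums were 556 to 627 CPM and 491 to 618 CPM, which overlap. Abundant markers such as MAP2 and TUBB3 weigh most in these sums, so they show little of the lower-level markers. MAP2 and TUBB3, cytoskeletal proteins of neurons, had means of 234 and 226 CPM in control and 252 and 231 CPM in ventral midbrain libraries. The part of mesenchymal cells or neurons in the lower LGALS3 was not tested.

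Of 12 microglia and macrophage markers, AIF1, P2RY12, C1QA, C1QB and C1QC had no read in any library. All 12 summed to 1.03 to 6.95 CPM in control and 0.862 to 3.71 CPM in ventral midbrain libraries, most of it CD68. The part of microglia or macrophages in the level of LGALS3 was not tested.

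Of 10 astrocyte markers, AQP4 and SLC1A3 rose, 8 did not pass and none was at 0, and GFAP had means of 362 and 371 CPM. Blocked, the same 2 were higher and 3 were lower, SOX9, GJA1 and CD44 (adjusted p = 0.030, 0.0079 and 0.0045 by edgeR). Over all tested genes 3.63% were higher and 4.5% lower with the block, and 1.06% and 1.09% without it. The AQP4 call was lost without any 1 control library or ventral midbrain replicate 2, and that of SLC1A3 without control replicate 2 or 4 or ventral midbrain replicate 3 or 4 (highest adjusted p = 0.21 and 0.12 by edgeR). Of 12 tested reactive astrocyte genes, 1 fell, S100A10, and 0 rose, and with the replicate block 5 were lower and 2 higher. The S100A10 call was lost with each of the 6 libraries left out (highest adjusted p = 0.19 by edgeR). The sum over all 17 was 4931 to 10650 CPM in control and 2297 to 6128 CPM in ventral midbrain libraries, with LCN2 at 0. CHI3L1, a secreted glycoprotein of reactive astrocytes, held most of that sum, with means of 5468 and 2954 CPM and groups that overlap (adjusted p = 0.68 by edgeR, and 0.0035 blocked). Without CHI3L1 the sums were 1800 to 2247 CPM and 1200 to 1658 CPM. The 2 that were higher with the block were GBP2, an interferon-induced GTPase, with means of 55.1 and 92.9 CPM, and PTX3, a secreted pentraxin, with means of 31.7 and 53.9 CPM (adjusted p = 0.014 and 0.0069 by edgeR, blocked).

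Of 5 tested choroid plexus and ependyma markers 0 passed edgeR's test, 5 had an unadjusted p under 0.05, DESeq2 called 2 and voom 1. Blocked, all 5 passed, 2 higher and 3 lower, where 3.63% of all tested genes were higher and 4.5% lower. FOXJ1, a regulator of motile cilia, had means of 10.2 CPM in control and 62.4 CPM in ventral midbrain libraries, and DNAH9, a dynein of such cilia, of 2.76 and 7.05 CPM (adjusted p = 0.0013 and 0.028 by edgeR, blocked). OTX2, a transcription factor of the choroid plexus and of the forebrain and midbrain, had means of 17.6 and 2.33 CPM, and the keratins KRT8 and KRT18 were lower too (adjusted p = 0.0014, 0.014 and 0.0021 by edgeR, blocked). All 8 summed to 97.9 to 142 CPM in control and 97.5 to 154 CPM in ventral midbrain libraries, sums in which these opposite differences cancel, with TTR at 0. The 5 pluripotent cell markers summed to 5.93 to 8.64 and 3.25 to 8.7 CPM, with TDGF1 at 0.

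The genes most like LGALS3 over the 6 libraries were found by Pearson's r of log2 CPM among 7566 other protein-coding genes (7567 for LGALSL) with an average log2 CPM of at least 4. These were TCF25 (r = 0.994), A2M (0.990), TMEM158 (0.987), SIK3 (0.986) and GTF2H5 (0.986). The points share libraries and their grouping, and high values of r arise among so many genes, so the ranking is a description. Likeness of shape did not mean a difference of like size. TMEM158, a membrane protein induced by RAS, was at 465, 490 and 546 CPM in control and at 148, 122 and 105 CPM in ventral midbrain libraries, a log2 fold change of -2.00 beside the -1.97 of LGALS3. A2M, the protease inhibitor alpha-2-macroglobulin, had means of 22.2 CPM in control and 11.7 CPM in ventral midbrain libraries. TCF25 had means of 362 and 299 CPM, SIK3 of 44.3 and 38.4 CPM and GTF2H5 of 75 and 55.6 CPM. For LGALS1 the nearest were PHF13 (0.997) and ADAM15 (0.995), and for LGALS3BP FBXW5 (0.993) was among the nearest. For LGALS8 they were FHL3 (0.993) and SH3GL1 (0.992), and for LGALSL LONP2 (0.992) and KLHL23 (0.990).

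**Figure D5:**
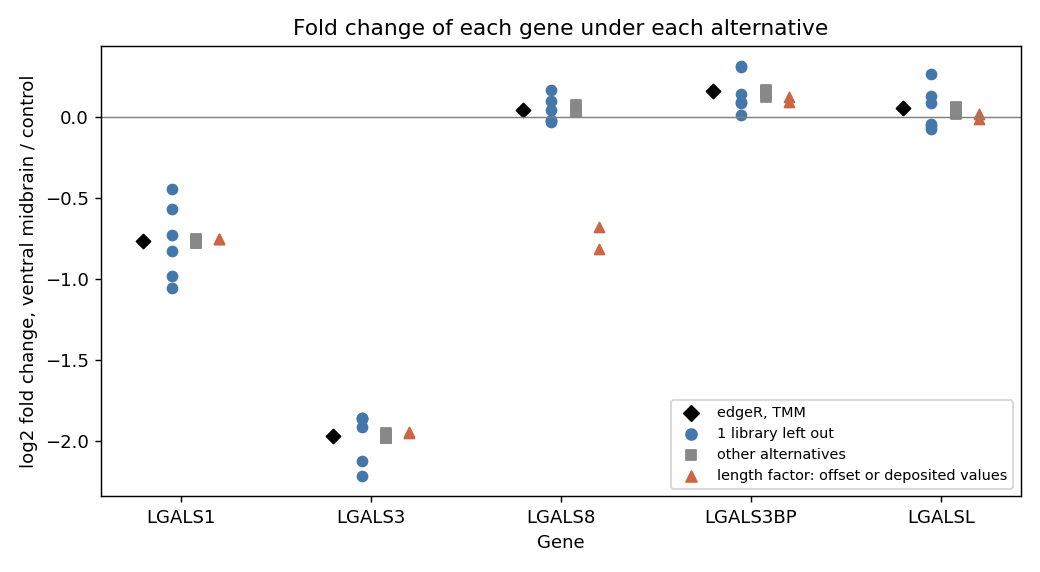
Log2 fold change (ventral midbrain over control) of the 5 genes in the edgeR fit, with each library left out, with length factors and under the other alternatives. LGALS3 stays at -2.22 to -1.86 throughout, and LGALS8 moves from 0.04 to -0.82 and -0.68 under the length factors.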

How the data were processed

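RNA of 3 control and 3 ventral midbrain libraries was read at the 3' end. Salmon, DESeq2 1.27.12 and GRCh38.p13 are named in the submitters' processing notes as what the authors used. The deposited files give estimated counts and TPM per transcript, with effective lengths, for 226608 transcripts. The deposited table of normalized gene signal was compared with gene counts. Dividing counts by library and gene-length factors gave the deposited signal within 0.01 natural log units for 94.9% of 14037 genes, and library factors alone did for 0.499%.

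Estimated counts were summed per gene with GENCODE annotation (GRCh38, 205225 transcripts matched by identifier without version) and rounded. Unmatched transcripts held 0.992% to 1.12% of the reads. Genes passing filterByExpr were scaled by TMM and tested with edgeR 4.0.16 (quasi-likelihood, robust; R 4.3.3) with Benjamini-Hochberg adjustment over all genes tested. SEs were derived from the fold change and its F statistic. Members and lists were chosen with earlier results of these data known. Genes named from the 3 lists are those past the threshold, up to 8 by p, and the 3 with the highest level; B4GALT1, CD63, CD44 and SQSTM1 are among the latter, and BCL2 and the marker genes given with values were named after their values were seen. Of the genes most like LGALS3BP, 1 is not reported here.

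Deviations from group means correlated at 0.383, 0.561 and 0.404 between same-numbered libraries and at most 0.0885 between others (10035 genes). The pairing comes from these data, since no label says what the numbers share. On data simulated for this comparison (15458 genes tested, 100 changed genes per fold), 45% of 2-fold and 93% of 4-fold changes were recovered, and 10.4% of 154 calls were false. That share of false calls is above the 0.05 that the adjustment aims at. The simulated libraries were drawn independently, without the deviations that same-numbered libraries share, so they do not describe the fit with the block. Alternatives used DESeq2 1.42.0, voom of limma 3.58.1, other scalings and filters, a gene-length offset, the deposited values on log2(value + 1), the replicate block and each library left out. Figures used matplotlib 3.10.9.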

Additional observations from a re-analysis of the deposited data

How the results depend on the processing

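The log2 fold changes of LGALS3, LGALS1, LGALS3BP and LGALSL moved by less than the spread between replicates under the 10 alternatives that kept all libraries. Leaving out 1 of 3 libraries cannot move a group mean beyond that spread, so the 6 left-out fits are given as ranges only. They were -2.22 to -1.86 for LGALS3, -1.05 to -0.44 for LGALS1, 0.01 to 0.32 for LGALS3BP and -0.07 to 0.27 for LGALSL. The log2 fold change of LGALS8 moved with the gene-length offset (-0.82) and in the deposited values (-0.68), through the length of a short transcript. The 344 calls over all genes became 1300 with the replicate block, 1012 with no filter, 750 with DESeq2, 214 with the deposited normalized values, 173 with the gene-length offset and 198 with that offset from protein-coding transcripts, an alternative chosen after seeing the data. With 1 library left out they were 131 to 258. The 7 calls in the 3 pathway lists became 21 with the replicate block, 13 with no filter, and 3 each with the deposited values, with the gene-length offset and with its protein-coding form. With 1 library left out they were 1 to 5, the count of 1 being without ventral midbrain replicate 2. The difference in the share of LGALS8-208 (ventral midbrain minus control) was 3.52 percentage points, 15.2 in TPM, and -22 to 27.8 with 1 library left out, so it had no stable direction. With the replicate block, as labels swapped within same-numbered pairs (an alternative chosen after seeing the data), the difference was 3.52 and the two-sided exact permutation p = 1, where 8 arrangements allow none below 0.25. Apart from the counts of calls and the genes given with a blocked value in the report, the block changed no call of a gene named there from the 3 lists. The cause of the other changes in counts was not tested. With 3 libraries a group, the simulated 2-fold changes were missed more often than found.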
